A study of Mus musculus with 15 samples.

Results

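The BCL2 family decides whether a cell keeps the outer membrane of its mitochondria intact. Pro-survival proteins (BCL2, BCL-XL, MCL1, BCL-W) hold back the pore formers BAX and BAK, and BH3-only proteins (BIM, PUMA, NOXA, BID) bind the pro-survival proteins or activate the pore formers directly. In regulatory T cells (Tregs), which restrain other immune cells through the transcription factor FOXP3, MCL1 is known as a survival factor and BIM as a main driver of death. Here 10 genes of the family were followed by name in the counts of 24015 genes: Bcl2, Bcl2l1 (BCL-XL), Mcl1 and Bcl2l2 (BCL-W), then Bax and Bak1, then Bcl2l11 (BIM), Bbc3 (PUMA), Pmaip1 (NOXA) and Bid. All 10 were present and passed the filter on low counts.

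Tregs of adult C57BL/6 mice were sorted as CD45+CD3+CD4+YFP+ cells. All mice carried Foxp3 cre-eyfp, which makes Cre recombinase and a yellow fluorescent protein wherever Foxp3 is active. Mice with this allele alone are called wild type (WT), and those that also carried Rora fl/fl, so that Cre removes a part of the nuclear receptor gene Rora in Tregs, are called cKO. The 5 groups of 3 libraries were WT lymph node (LN; axillary nodes draining the skin, untreated), WT untreated skin, WT MC903 skin, cKO untreated skin and cKO MC903 skin. MC903, also known as calcipotriol, is an analogue of vitamin D that provokes dermatitis; ears received it 4 times in ethanol. Untreated skin was dorsal skin plus ears, without a vehicle-treated group, whereas MC903 skin was ears, so treatment cannot be told apart from body site. Skin was digested for 90 minutes and no digestion is stated for LN, so tissue cannot be told apart from digestion. Replicates are labelled as biological, and whether mice were pooled is not stated.

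Total counts ran from 19774723 to 27745008 per library. Foxp3 stood at 16.2 to 41.8 CPM, the count scaled by library size, in LN and at 110.5 to 202 CPM in the skin libraries. Il2ra, Ctla4 and Ikzf2 were also higher in every skin library than in every LN library. Cd3e went the other way, at 1318 to 1661 CPM in LN and 772 to 1090 in skin. Cd4 stood at 407 to 452 CPM in LN and 230 to 438 in skin. Rora stood at 52.8 to 66.6 CPM in LN, 1327 to 1510 in WT untreated skin, 822 to 1199 in cKO untreated skin, 739 to 813 in WT MC903 skin and 473 to 633 in cKO MC903 skin. A count over the whole gene does not separate deleted from kept exons. The 8 B cell markers summed to 262 to 765 CPM in LN and 12.03 to 36.2 in skin, where Pax5 was at 0 in every library. The 8 keratinocyte markers summed to 15.1 to 17.3 CPM in LN and 47.9 to 457 in skin. A list of 10 genes that tissue digestion is known to induce holds immediate early genes and the heat shock genes Hspa1a and Hspa1b. These 10 genes summed to 779.5 to 847 CPM in LN and 4638 to 16500 in skin. The part of other cells and of digestion in the results below was not tested.

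The family shares the BH3 stretch, an amphipathic helix through which its members bind each other. The coding bases of that stretch are shown for 9 members as a feature that these divergent genes share. Pmaip1 was left out of the search beforehand, so its absence here does not mean that it lacks the stretch. Each line was read from GENCODE transcripts of the GRCm38 build, and capitals mark the codon of the conserved hydrophobic residue and the 2 codons that end in the conserved aspartate.
Bcl2: accCTCcgccgggctGGGGATgac
Bcl2l1: gcgCTGagagaggcaGGCGATgag
Mcl1: accCTGcggcgcgtgGGCGACggc
Bcl2l2: gccATGcgggctgctGGAGACgag
Bax: tgtCTCcggcgaattGGAGATgaa
Bak1: cagCTTgctctcatcGGAGATgat
Bcl2l11: gagCTGcggcggatcGGAGACgag
Bbc3: cagCTGcggcggatgGCGGACgac
Bid: catCTCgcccaaataGGCGATgag
The search asked for a leucine or methionine codon, 3 free codons and the marked pair. It also asked that a codon for aspartate, glutamate, asparagine or serine follow. For Mcl1, where this last condition gave no match, it was dropped. Each of the 9 coding sequences had 1 match by its search. Whether the pattern without the last condition occurs more than once in the others was not tested. All lines, from members on both sides of the death decision, have the same layout because the search asked for it.

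The first comparison asked how Tregs of skin differ from those of the nodes that drain it. In WT untreated skin, Bcl2 was far lower than in LN, while Bcl2l1, Mcl1, Bcl2l11, Bbc3, Pmaip1 and Bax were higher and Bid was lower. Thus 6 members rose and 2 fell, at an adjusted p under 0.05 (quasi-likelihood F test in edgeR, Benjamini-Hochberg adjustment over 13578 genes). Of all genes tested, 57.6% were called in this comparison, and the count of 8 of 10 members is read against that background. The median log2 change was 1.19 over the 10 members and 0.01 over all genes, and the median size of the change 1.54 and 1.01.

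Bcl2 encodes the founding pro-survival protein, and in GENCODE's GRCm38 annotation it lies at chr1:106538178-106714274 on the minus strand. Its level was 319.6, 309 and 325 CPM in the 3 LN libraries. It was 4.49, 3.23 and 6.78 CPM in WT untreated skin and 9.46, 7.35 and 7.34 in WT MC903 skin. In cKO it was 3.18, 2.98 and 2.77 CPM in untreated skin and 8.34, 6.30 and 4.48 in MC903 skin. Every skin library was thus below 10 CPM and every LN library above 300, with no overlap. The log2 change in WT untreated skin against LN was -6.05 ± 0.27 (SE, n = 3 per group), a 66.1-fold lower level (adjusted p = 5.96e-11, edgeR). It ranked 506 by size of change among the genes tested. Against the same LN libraries the log2 change was -5.30 in WT MC903 skin, -6.74 in cKO untreated skin and -5.64 in cKO MC903 skin. The authors' deposited table, which codes LN minus skin, gives Bcl2 a log2 fold change of 5.87 with a standard error of 0.23. B cells also express Bcl2, and the LN library with the most B cell transcripts, 765 CPM against 262 and 276, had 325 CPM of Bcl2 against 309 and 319.6. The part of B cells in the Bcl2 level of LN was not tested.

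Bcl2l1 encodes BCL-XL, a second pro-survival protein, and lies at chr2:152780668-152831728 (GRCm38, minus strand). It moved the other way. Its level was 78.2, 71.6 and 91.2 CPM in LN and 612.5, 538 and 527 CPM in WT untreated skin. All skin libraries of the series, from 309 to 612.5 CPM, were above all LN libraries. The log2 change in WT untreated skin against LN was 2.80 ± 0.13 (SE), a 6.96-fold higher level (adjusted p = 8.32e-11, edgeR). In the other skin groups the log2 change against LN was 2.51 (WT MC903), 2.75 (cKO untreated) and 2.09 (cKO MC903).

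Mcl1 encodes a short-lived pro-survival protein and lies at chr3:95658788-95663176 (GRCm38, plus strand). Its level was 133.9, 91.8 and 89.2 CPM in LN and 356, 335 and 241 CPM in WT untreated skin. The groups did not overlap, and the log2 change was 1.57 ± 0.42 (SE; adjusted p = 0.00632, edgeR). Mcl1 was the least even of the abundant members. In MC903 skin its libraries were at 261, 476 and 138 CPM for WT and at 196, 302 and 518 CPM for cKO, a coefficient of variation of 58.7% and 48.4%. For WT MC903 skin against LN the log2 change was 1.47 (adjusted p = 0.0104, edgeR), and without replicate 2 of WT MC903 skin it was 0.92 (adjusted p = 0.0517). In a run chosen after seeing the data, without replicate 3 of LN and of WT untreated skin, it was 1.41 (adjusted p = 0.0524, edgeR). Bcl2l2, which encodes BCL-W, stayed at or below 4.91 CPM in every library, and its change was not called in any of the 4 comparisons with LN.

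Levels of different genes can be compared only per length, here as CPM per kilobase of annotated exon. On that scale LN Tregs had 34.7 ± 0.90 of Bcl2, 30.7 ± 7.34 of Mcl1, 17.5 ± 2.18 of Bcl2l1 and 0.15 ± 0.06 of Bcl2l2 (mean ± SD, n = 3). Bcl2 and Mcl1 did not differ beyond their spread, so the order of the first pair is open to error. In WT untreated skin the values were 122 ± 10.2 for Bcl2l1, 90.8 ± 17.9 for Mcl1, 0.53 ± 0.20 for Bcl2 and 0.43 ± 0.58 for Bcl2l2. Bcl2 thus made up 42.0% ± 3.26 of the summed CPM per kilobase of these 4 genes in LN and 0.26% ± 0.13 in WT untreated skin. Its share in single libraries was 0.10% to 0.65% over all 12 skin libraries. The sum of the 4 genes was 83.1 ± 7.59 CPM per kilobase in LN and 214 ± 26.2 in WT untreated skin. The exon lengths come from GRCm38 and not from the annotation behind the counts, so these orders are approximate.

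**Figure D1:**
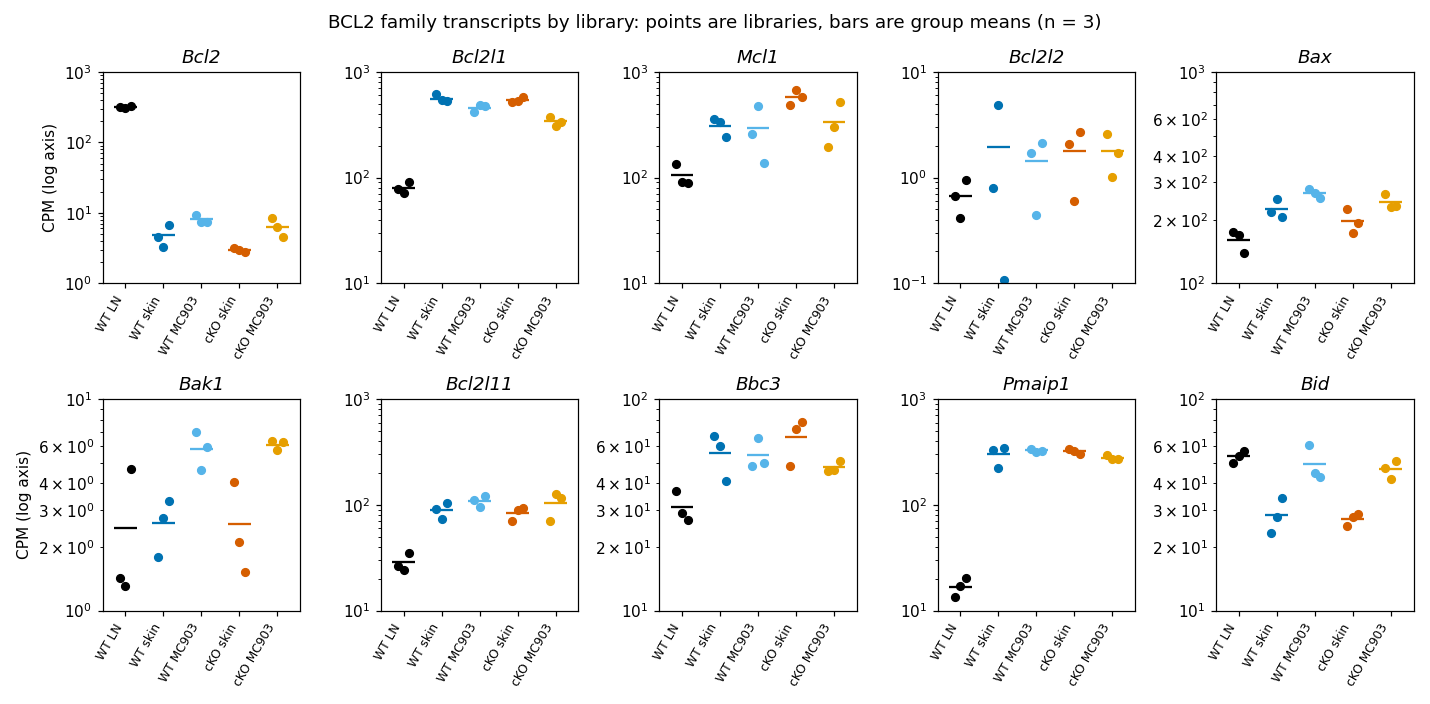
Level of each member in CPM (log axis) in the 15 libraries; points are libraries and bars are group means (n = 3). Bcl2 is above 300 CPM in the 3 LN libraries and below 10 CPM in all 12 skin libraries, and Bcl2l1 and Pmaip1 are higher in every skin library than in LN.

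The pore formers differed in level. BAX moves from the cytosol to mitochondria when activated, and Bax stood at 174, 169 and 139.5 CPM in LN and at 217, 249.6 and 205 CPM in WT untreated skin. The groups were apart, with a log2 change of 0.48 ± 0.13 (SE; adjusted p = 0.00491, edgeR). In cKO untreated skin it was 226, 172 and 192 CPM and overlapped LN, with a log2 change of 0.29 that was not called by edgeR (adjusted p = 0.0633). Alternatives did call Bax there: DESeq2 (0.34, adjusted p = 0.0215), another scaling of the libraries (0.34, adjusted p = 0.0337, edgeR) and a filter of 50 counts in 3 libraries (adjusted p = 0.0406, edgeR). WT and cKO untreated skin are therefore not told apart by these calls. Bak1, whose protein sits in the mitochondrial membrane, was scarce, at 1.42, 1.30 and 4.68 CPM in LN and 1.80, 2.74 and 3.28 CPM in WT untreated skin. Its log2 change there was 0.08 with a 95% confidence interval of -0.99 to 1.15. Per kilobase, Bax stood at 102 ± 11.8 and Bak1 at 1.02 ± 0.80 CPM in LN (mean ± SD, n = 3).

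Among the BH3-only genes the most changed was Pmaip1, which encodes NOXA, a partner of MCL1. It was at 13.5, 17 and 20.1 CPM in LN and at 332, 223 and 346 CPM in WT untreated skin. No library of the 12 from skin was below 223 CPM. The log2 change in WT untreated skin was 4.15 ± 0.18 (SE), a 17.8-fold higher level (adjusted p = 3.88e-11, edgeR). Against LN it was 4.28 in WT MC903 skin, 4.26 in cKO untreated skin and 4.04 in cKO MC903 skin.

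Bcl2l11, which encodes BIM, a BH3-only protein that binds all the main pro-survival proteins, was at 26.4, 24.4 and 35.2 CPM in LN and 91.9, 73.4 and 104.9 CPM in WT untreated skin. The groups were apart, with a log2 change of 1.65 ± 0.22 (SE; adjusted p = 9.26e-06, edgeR). Bbc3, a p53 target that encodes PUMA, was at 36.9, 28.8 and 26.8 CPM in LN and 66.6, 60 and 40.9 CPM in WT untreated skin. Its log2 change was smaller, at 0.86 ± 0.21 (SE; adjusted p = 0.00274, edgeR). Bid, whose protein is cleaved by caspase 8 and so links death receptors to mitochondria, was the BH3-only gene that fell. It was at 50.1, 54.0 and 56.6 CPM in LN and 23.3, 27.8 and 34.0 CPM in WT untreated skin, again apart, with a log2 change of -0.92 ± 0.17 (SE; adjusted p = 0.000256, edgeR).

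The make-up of the BH3-only set therefore differed by tissue. Pmaip1 made up 15.7% ± 2.98 of the summed CPM per kilobase of Bcl2l11, Bbc3, Pmaip1 and Bid in LN and 70.2% ± 5.47 in WT untreated skin (mean ± SD, n = 3). Bid made up 38.4% ± 2.45 in LN and 5.23% ± 1.23 in WT untreated skin. The share of Bcl2l11 was 9.04% ± 1.58 and 7.22% ± 0.53, although its own level rose. The sum of the 4 genes was 39.4 ± 1.18 CPM per kilobase in LN and 155.5 ± 24.8 in WT untreated skin.

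**Figure D2:**
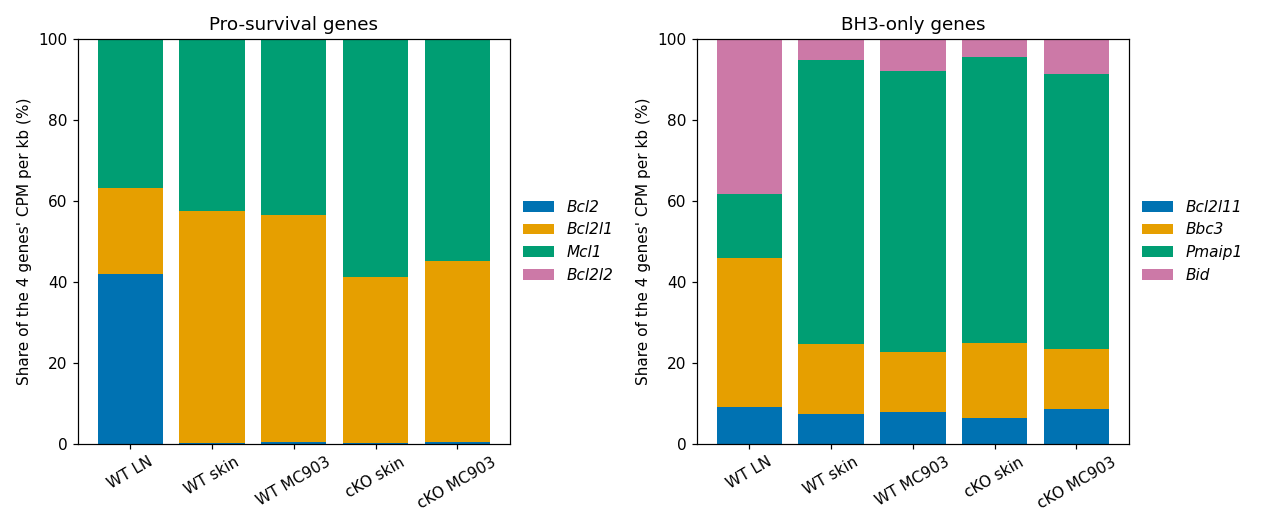
Mean share (n = 3) of each gene in the summed CPM per kilobase of the 4 pro-survival genes (left) and the 4 BH3-only genes (right), in percent, by group. Bcl2 falls from 42.0% in LN to 0.50% or less in each skin group, and Pmaip1 goes from 15.7% in LN to between 67.8% and 70.6% in skin.

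The other skin groups were set against the same LN libraries, so these comparisons share their controls. In WT MC903 skin 6 members rose and 1 fell, beside 51.1% of all genes called. In cKO untreated skin 5 rose and 2 fell, beside 56.7%. In cKO MC903 skin 7 rose and 1 fell, beside 50.3%. Bid, lower than LN in untreated skin of both genotypes, stood at 60.9, 44.8 and 42.7 CPM in WT MC903 skin and overlapped LN there, with a log2 change of -0.12 (95% confidence interval -0.47 to 0.24). In cKO MC903 skin, Bak1 (log2 change 1.30 ± 0.51, adjusted p = 0.0428) and Bbc3 (0.63 ± 0.21, adjusted p = 0.0215) were called by edgeR. For that group, with 1 library left out, the adjusted p of Bak1 rose to as much as 0.16 (without LN replicate 2) and that of Bbc3 to 0.0727 (without LN replicate 2 or 3). Bbc3 was also called in WT MC903 skin (0.82, adjusted p = 0.00446, edgeR) and in cKO untreated skin (1.10, adjusted p = 0.00038). Bak1 in WT MC903 skin was not called by edgeR (1.24 ± 0.51, adjusted p = 0.0515) but was by DESeq2 (1.27, adjusted p = 0.032).

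The second question was what MC903 did in skin. Bid rose in both genotypes. It went from 23.3, 27.8 and 34.0 CPM to 60.9, 44.8 and 42.7 CPM in WT, and from 25.1, 27.8 and 28.6 CPM to 47.2, 42.1 and 50.8 CPM in cKO. Treated libraries were above all untreated ones in each genotype. The log2 change was 0.80 ± 0.17 in WT (SE; adjusted p = 0.00742, edgeR) and 0.78 ± 0.17 in cKO (adjusted p = 0.00837). In WT the call was lost when only the compared groups were fitted (adjusted p = 0.0684) or without the 3 libraries richest in keratinocyte, fibroblast and endothelial transcripts (adjusted p = 0.0502). Bid was the 1 member of 10 called in WT, where 10.5% of all genes were called.

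In cKO skin 3 of 10 members were called under MC903, beside 11.3% of all genes. Besides Bid, Bcl2 rose, from between 2.77 and 3.18 CPM to between 4.48 and 8.34 CPM, a log2 change of 1.10 ± 0.25 (SE; adjusted p = 0.0102, edgeR). Without cKO untreated skin replicate 3 the adjusted p was 0.0509, without cKO MC903 skin replicate 1 it was 0.053, and with only the compared groups 0.0707. In WT the log2 change of Bcl2 was 0.74 ± 0.24 and was not called (adjusted p = 0.0565, edgeR), but without WT untreated skin replicate 3 it was 1.06 (adjusted p = 0.0104). The levels reached under MC903 remained far below those of LN.

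Bcl2l1 fell in cKO skin, from 515, 529 and 574 CPM to 377, 309 and 339 CPM, with a log2 change of -0.66 ± 0.12 (SE; adjusted p = 0.00325, edgeR). The groups were apart. In WT it was 612.5, 538 and 527 CPM untreated and 413, 489.9 and 472 CPM treated, also apart, with a log2 change of -0.29 that was not called (adjusted p = 0.146). Whether MC903 acted differently in the genotypes was tested by the interaction term, which for Bcl2l1 was -0.37 ± 0.17 (SE; adjusted p = 0.866, edgeR). No member passed in the interaction, where 0% of all genes were called by edgeR. Bcl2l1 was the 1 member with an unadjusted p under 0.05, a laxer threshold for which the share of all genes was not computed. DESeq2 called 17 genes, none of them a member.

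Bak1 and Bax were higher in every MC903 library than in every untreated library of the same genotype, without a call by edgeR. Treated and untreated libraries were apart for 5 of 10 members in WT and 6 of 10 in cKO. The share of all genes that were apart was not computed. With limma-voom both were called in cKO, Bak1 at 1.53 (adjusted p = 0.0166) and Bax at 0.34 (adjusted p = 0.0421). Bak1 went from 1.80, 2.74 and 3.28 CPM to 6.99, 4.61 and 5.91 CPM in WT, a log2 change of 1.16 ± 0.51 (SE; adjusted p = 0.161, edgeR). In cKO it went from 4.07, 2.11 and 1.52 CPM to 6.31, 5.72 and 6.25 CPM, a log2 change of 1.25 ± 0.51 (adjusted p = 0.125). Mcl1, Bcl2l2, Bcl2l11, Bbc3 and Pmaip1 were not called in either genotype. Intervals show how much room that leaves: for Pmaip1 in WT the log2 change was 0.13 (95% confidence interval -0.20 to 0.46), for Mcl1 -0.09 (-0.97 to 0.79). The 10 genes that digestion is known to induce summed to 9968 to 16500 CPM in WT untreated skin and 5156 to 6098 in WT MC903 skin. Their part in the values of the members was not tested.

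**Figure D3:**
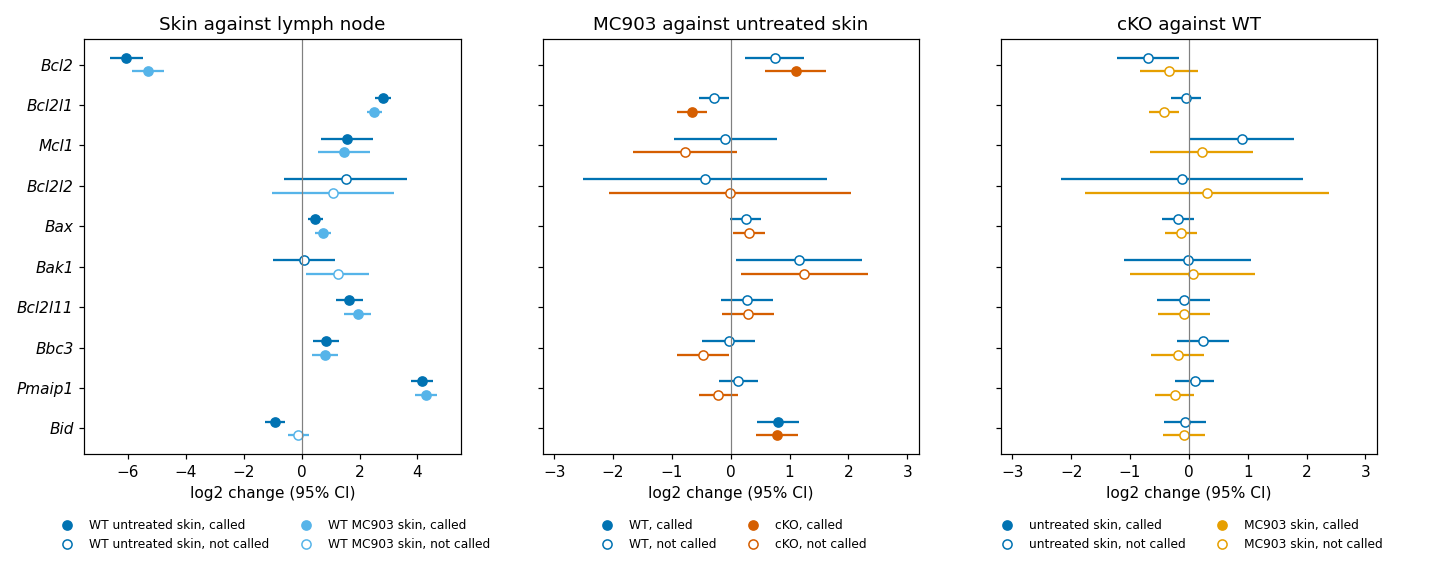
Log2 change of each member with its 95% confidence interval (edgeR; filled points have an adjusted p under 0.05) for skin against LN in WT, MC903 against untreated skin, and cKO against WT. Bcl2 lies near -6 and Pmaip1 near 4 in the first panel, Bid is called in both genotypes in the second, and no member is called in the third.

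The last question was whether Treg loss of Rora changed these genes in skin. No member was called. In untreated skin 0.803% of all genes were called and 2 members had an unadjusted p under 0.05. In MC903 skin the background was 0.258% and 1 member had an unadjusted p under 0.05, and for the genotype effect averaged over treatments 1.75% and 2. An unadjusted p under 0.05 is a laxer threshold than the one behind these percentages. The share of all genes that passed it was not computed, so the member counts cannot be set against the percentages. The median size of the log2 change over the 10 members was 0.11 in untreated skin, beside 0.26 for all genes, and 0.21 in MC903 skin, beside 0.21.

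The values nearest to a call were those of Bcl2, Bcl2l1 and Mcl1. Bcl2 in untreated skin was 4.49, 3.23 and 6.78 CPM for WT and lower in each cKO library, at 3.18, 2.98 and 2.77 CPM. The log2 change was -0.69 ± 0.25 (SE; adjusted p = 0.29, edgeR), and averaged over treatments it was -0.51 ± 0.17 (adjusted p = 0.189). Bcl2l1 in MC903 skin was 413, 489.9 and 472 CPM for WT libraries against 377, 309 and 339 CPM for cKO, without overlap, with a log2 change of -0.42 ± 0.12 (adjusted p = 0.265). Mcl1 in untreated skin was 356, 335 and 241 CPM for WT libraries against 487, 679.6 and 582 CPM for cKO, also without overlap. Its log2 change of 0.91 ± 0.41 was not called (adjusted p = 0.419, edgeR), and in MC903 skin the groups overlapped, at 0.22 ± 0.41. Pmaip1 in MC903 skin also did not overlap between genotypes, with a log2 change of -0.24 (adjusted p = 0.888, edgeR). Thus 2 members were without overlap in each treatment. The share of all genes without overlap was not computed in any comparison, so lack of overlap is not read as a result.

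Intervals were also computed for the genes that promote death. The log2 change of Bcl2l11 in cKO against WT untreated skin was -0.09 (95% confidence interval -0.54 to 0.36), that of Pmaip1 0.10 (-0.23 to 0.44), that of Bax -0.19 (-0.46 to 0.08) and that of Bid -0.06 (-0.42 to 0.30). For Bbc3 the log2 change was 0.245 (-0.20 to 0.69). A 2-fold change in either direction lies outside each of these intervals. Bak1 (-1.10 to 1.05) and the pro-survival gene Bcl2l2 (-2.18 to 1.94) were too scarce for such a limit.

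Across the 12 skin libraries, which come from 4 groups of unequal mean, likeness between genes was described by Pearson's r of log2 CPM with no test. Genes most like Bcl2 were Cyb5r4 (r = 0.94), Sema4b (0.92) and Fam45a (0.92), and 7 of 8358 genes searched had an r above 0.9. Those most like Mcl1 were Mark3, Siah1a and Gnb1 (each 0.98), with 118 of 8357 above 0.9. Those most like Bcl2l11 were 5830416I19Rik (0.87), Tonsl (0.85) and Gm19557 (0.84), with none above 0.9. Among members, the highest r was that of Bid and Bak1 (0.87) and the lowest that of Bcl2l1 and Bak1 (-0.81).

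Further BCL2 family genes came from a list of 16, of which 14 were tested. In WT untreated skin against LN 9 rose and 2 fell, beside 57.6% of all genes called, with a median log2 change of 1.29 beside 0.01 for all genes. The genes that rose include Bok, at 0.07, 0 and 0.03 CPM in LN and 2.46, 0 and 0.97 CPM in WT untreated skin. The call of Bok was lost in 7 of 15 runs with 1 library left out. Bcl2a1b and Bcl2a1d, mouse copies of the pro-survival gene A1, rose by 1.74 ± 0.16 and 1.59 ± 0.20 on the log2 scale (SE; adjusted p = 1.79e-07 and 6.27e-06, edgeR), but A1 copies are nearly identical and reads may be split among them in an unknown way. Bnip3 and Bnip3l, which act in the removal of mitochondria, rose by 1.46 ± 0.34 and 0.66 ± 0.13 (adjusted p = 0.00214 and 0.000351). Bcl2l12 fell by 1.96 on the log2 scale, from 13.7, 18.8 and 13.4 CPM in LN to 3.36, 4.42 and 4.04 CPM. Bcl2l14 had 68, 59 and 121 reads in the LN libraries and 0 in each WT untreated skin library, at least 18.5-fold higher in LN when 3 reads per library are taken as the floor.

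Bmf, a BH3-only gene, was the only gene of that list called by genotype, averaged over treatments, with a log2 change of -1.28 ± 0.31 (SE; adjusted p = 0.045, edgeR). Its level was 6.81, 7.25 and 4.25 CPM in WT untreated skin and 2.88, 1.60 and 1.91 CPM in cKO. In MC903 skin it was 5.53, 6.39 and 10.3 CPM for WT against 2.33, 5.43 and 3.05 CPM for cKO. The groups were apart in each treatment. The call was lost in 12 of 15 runs with 1 library left out and under 3 of 9 other alternatives, with an adjusted p of 0.00463 to 0.30 over all of them. Without the 3 libraries richest in keratinocyte, fibroblast and endothelial transcripts the log2 change was -1.03, and this run gave the highest adjusted p.

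Downstream of the mitochondria, 3 of 9 apoptosome and caspase genes rose and 4 fell in WT untreated skin against LN, beside 57.6% of all genes called. The genes that rose include one near the floor, at a mean of 0.01 CPM in LN and 0.84 CPM in WT untreated skin. Apaf1, the scaffold of the apoptosome, rose by 1.71 ± 0.22 on the log2 scale (SE; adjusted p = 8.73e-06, edgeR). The initiator Casp9, which it activates, fell by 1.89 on that scale (adjusted p = 7.33e-05), and Casp8, the initiator below death receptors that cleaves BID, fell by 1.31 (adjusted p = 2.45e-06). Under MC903 Casp9 rose in WT (1.29 ± 0.30, adjusted p = 0.0133) and was not called in cKO (0.71 ± 0.30, adjusted p = 0.132). The WT call was lost with limma-voom (adjusted p = 0.0507) and without WT untreated skin replicate 2 (adjusted p = 0.0536). Of 8 genes for inhibitor of apoptosis proteins and their antagonists, 2 rose and 2 fell, a share of calls below the 57.6% of all genes: the inhibitors Birc2 and Birc3 rose by 0.64 and 1.02, and the antagonists Diablo and Htra2, which leave mitochondria once the pore opens, fell by 0.73 and 1.51. Without replicate 3 of LN and of WT untreated skin, Birc2 was not called (adjusted p = 0.0586, edgeR).

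Of 13 death receptor genes and adaptors, 7 rose and 4 fell in WT untreated skin against LN, again beside 57.6% of all genes. Tnfrsf10b, the mouse TRAIL receptor, rose by 3.73 ± 0.18 (SE; adjusted p = 1.4e-10, edgeR), Tnfrsf1b by 2.16 and Ripk3 by 2.15. By genotype, averaged over treatments, the ligand genes Tnfsf10 (TRAIL, 0.82 ± 0.14, adjusted p = 0.00478) and Fasl (1.02 ± 0.23, adjusted p = 0.0293) were higher in cKO. The call of Fasl was lost in 9 of 15 runs with 1 library left out, with an adjusted p of up to 0.0935.

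Upstream regulators included p53 and FOXO genes, of which 7 of 10 rose and 1 fell in WT untreated skin against LN, where 57.6% of all genes were called. The genes that rose include one near the floor, at a mean of 0.17 CPM in LN and 1.40 CPM in WT untreated skin. Cdkn1a, a p53 target that stops the cell cycle, rose by 7.42 ± 0.25 (SE; adjusted p = 3.5e-12, edgeR), and Foxo3, whose protein activates the BIM gene, by 2.76 ± 0.37 (adjusted p = 1.22e-05). Of 16 genes of interleukin 2 and interleukin 7 signalling, which sustains Tregs, 12 rose and 1 fell against the same background of 57.6%. Among them were the STAT5 target Cish (2.05 ± 0.10, adjusted p = 1.69e-10), the kinase gene Pim1 (3.46 ± 0.17, adjusted p = 2.25e-10) and Stat5a (1.82 ± 0.14, adjusted p = 2.73e-08). Under MC903 Il2ra rose in both genotypes (0.91 and 0.66) and Cish fell in both (-0.52 and -0.59). In WT the adjusted p of Il2ra was 0.0717 with only the compared groups and 0.065 without the 3 richest libraries named above, where that of Cish was 0.0667 (edgeR).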

How the data were processed

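Libraries of sorted Tregs (SMART-Seq v4) gave 75 bp single-end reads, per the labels' protocols. The aligner was TopHat2 2.0.6 and the build mm9, per the submitters' processing notes. The counting step and its annotation are not given in the sources used here. The authors deposited raw counts per gene, and a comparison of LN with skin whose columns, per the file headers, are the average normalised signal, the log2 change with its standard error, a score (change divided by error), and raw and adjusted p-value.

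The fit used edgeR 4.0.16 under R 4.3.3: filterByExpr (13578 of 24015 genes), TMM factors of 0.903 to 1.26, 1 quasi-likelihood model over 15 libraries, and Benjamini-Hochberg adjustment with a threshold of 0.05. CPM refer to TMM-scaled library sizes. The common dispersion of 0.138 is a biological coefficient of variation of 37.2%. The members, lists and naming rule (all members; up to 4 called genes of smallest adjusted p per list; any extended family gene; the 3 genes most like Bcl2, Mcl1 and Bcl2l11 among genes whose mean log2 CPM was at least 3, pseudocount 1) were chosen with earlier results of these data known. Alternatives used DESeq2 1.42.0, limma 3.58.1 and other filters, scalings and sample sets. The fit was tested on simulated data in which a small part of the genes changed, in a single group, at a dispersion below that of these data. That test does not cover a shift as broad as the one between skin and LN.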

Additional observations from a re-analysis of the deposited data

How the results depend on the processing

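Over 24 alternatives, none of the 34 called member results changed sign and 5 lost their call under at least 1 alternative, while 7 of 66 results without a call gained one. The number of members called higher under MC903 in WT was 2 with DESeq2, with a filter of 50 counts in 3 libraries, and without replicate 3 of LN and of WT untreated skin, which have the most macrophage and dendritic transcripts of their groups (a run chosen after seeing the data). It was 0 with only the compared groups and without the 3 libraries richest in keratinocyte, fibroblast and endothelial transcripts, and 1 to 2 with 1 library left out. In cKO it was 4 with limma-voom, 1 with only the compared groups, and 1 to 2 with 1 library left out. Members called lower in cKO numbered 2 without the 3 richest libraries, where Mcl1 was called, and 1 to 2 with 1 library left out. Replicate numbers showed no clear pairing of libraries: 3 of 30 same-numbered pairs correlated above 0.1, and 5 of 15 libraries were closest to their own number. With 3 replicates per group and no mouse named in the labels, these values cannot show whether libraries share mice.

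In 29 results without a call the estimated log2 change crossed 0 and was not called on either side. The sign of such an estimate, where printed above, is therefore not read as a direction. With the replicate block this crossing gave 0.000 for Bcl2l11 in the interaction, and for Bcl2l2 0.031 under MC903 in cKO and -0.033 by genotype averaged over treatments. With limma-voom it gave -0.118 for Bak1 (averaged genotype), 0.019 for Bbc3 (MC903, WT), and for Bcl2l2 1.475 (MC903, WT), 0.146 (MC903, cKO), -0.345 (WT untreated skin against LN), 1.634 (genotype, untreated) and -1.328 (interaction). Without the 3 richest libraries it gave -0.088 for Bak1 (averaged genotype), 0.166 for Bbc3 (MC903, WT), 0.020 for Bcl2l1 (genotype, untreated), -0.009 for Bcl2l11 (interaction), 0.012 for Bcl2l2 (MC903, cKO), and for Mcl1 0.356 (MC903, WT) and -0.564 (genotype, MC903). In the run chosen after seeing the data it gave 0.191 and -0.133 for Bak1 (genotype in untreated skin, interaction), -0.055 for Bbc3 (averaged genotype), 0.057 and -0.141 for Bcl2l11 (genotype in untreated skin, interaction), -0.173 for Bcl2l2 (averaged genotype), and 0.111 and 0.012 for Bid (genotype in untreated skin, averaged). The cause was not tested.

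With 1 library left out the ranges that crossed 0 were as follows. For Bak1 they were -0.233 to 0.960 (WT untreated skin against LN), -0.444 to 0.957 (cKO untreated skin against LN), -0.082 to 0.205 (genotype, MC903), -0.228 to 0.154 (averaged), -0.518 to 0.246 (genotype, untreated) and -0.184 to 0.580 (interaction). For Bcl2l2 they were -0.992 to 1.631 (MC903, WT), -0.423 to 0.406 (MC903, cKO), -0.556 to 2.067 (WT untreated skin against LN), -0.117 to 0.713 (genotype, MC903), -0.180 to 1.131 (averaged), -0.670 to 1.953 (genotype, untreated) and -1.644 to 0.980 (interaction). For Bcl2l11 they were -0.242 to 0.134 (genotype, MC903), -0.166 to 0.023 (averaged), -0.218 to 0.035 (genotype, untreated) and -0.153 to 0.223 (interaction). For Bid they were -0.177 to 0.087, -0.133 to 0.026, -0.184 to 0.089 and -0.170 to 0.121 in the same order. The rest were -0.037 to 0.161 for Bax (interaction), -0.217 to 0.110 (MC903, WT) and -0.064 to 0.119 (averaged) for Bbc3, -0.099 to 0.020 for Bcl2l1 (genotype, untreated), -0.639 to 0.246 (MC903, WT) and -0.227 to 0.765 (genotype, MC903) for Mcl1, and -0.046 to 0.244 (MC903, WT) and -0.073 to 0.217 (genotype, untreated) for Pmaip1.

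Over all genes, the number called by genotype ranged from 60 to 323 in untreated skin (main 109), 11 to 140 in MC903 skin (main 35) and 149 to 462 averaged (main 237), with DESeq2 the highest each time. The interaction called up to 17 genes with DESeq2. Under MC903 the counts were 451 to 2048 in WT (main 1421) and 645 to 2668 in cKO (main 1529).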
